A study of Mus musculus with 2 samples.

Results

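The cells described here are the 294 lymphocytes of the inflamed mouse aorta that the authors annotated as activated CD8 T cells. They were taken by that annotation from the deposited table of cells, within the LCWE library, and are 294 of 5091 cells of that library and of 10477 cells in all. The LCWE library pooled the abdominal aortas of 7 wild-type C57BL/6J mice 2 weeks after an intraperitoneal injection of LCWE. That extract of the Lactobacillus casei cell wall causes a vasculitis used as a model of Kawasaki disease. The PBS library pooled 9 aortas of wild-type C57BL/6J mice of the same protocol 2 weeks after PBS. Mouse age and sex are not given in the sources used here.

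CD8 T cells recognise peptides shown on MHC class I. After activation they make granzymes and perforin, which kill the bound target cell, and cytokines and chemokines such as interferon gamma and CCL5. NK cells kill with the same granules but find their targets through germline receptors of the killer lectin-like family, and NKT cells carry a T cell receptor together with NK receptors. In vessel inflammation these lymphocytes enter the wall from the blood through chemokine receptors and integrins.

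The activated CD8 T cells were compared with 3 classes named by the authors in the same library: 280 naive CD8 T cells, 281 NK cells and 318 cells named NKT. The unit is CPM, a gene's UMIs (tags of captured RNA molecules) in all cells of a class, scaled to the same UMI total for each class. Each condition is 1 pooled library and cells are not replicates, so no test was possible. The classes also came from clustering of the same cells, so differences between them are descriptions. Intervals in parentheses are exact 95% intervals that cover counting error only.

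The class held 5.77% (5.15 to 6.45) of the LCWE cells, while 15 cells of the same name made up 0.279% (0.156 to 0.459) of the 5386 PBS cells. Among T, NK and innate lymphoid cells alone the share was 13.4% (12 to 14.9) of 2198 in the LCWE library and 20% (11.6 to 30.8) of 75 in the PBS library. The class was thus a larger part of all cells in the LCWE library than in the PBS library, and the intervals overlapped only for the share of lymphocytes. The depth was a median of 3839 UMIs a cell (1820 to 24991) in activated CD8 T cells, 4529.5 in naive CD8 T cells, 3397 in NK cells and 3967.5 in cells named NKT. No barcode of the class was among the 8 that the libraries share.

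The marker transcripts counted in the class went with its name. The classes came from clustering of the same cells, so this is a description and no independent check of the name. A UMI of the CD3 genes Cd3d, Cd3e or Cd3g, the signalling chains of the T cell receptor, was present in 294 of 294 cells. The constant genes of the receptor chains themselves (Trac, Trbc1, Trbc2, Trdc and Tcrg-C1) had no entry of that name in the counts. Alpha-beta and gamma-delta T cells were therefore not told apart by them. A UMI of the CD8 chains Cd8a or Cd8b1 was present in 271 cells, and the 23 cells without one were shallower, with a median of 3137 UMIs. Cd4 was seen in 10 cells, of which 7 also had Cd8. The 4 CD4 T cell markers Cd4, Foxp3, Ctla4 and Il2ra together had 235 UMIs in 89 cells, and 177 of these UMIs were Ctla4. Over 3 of these UMIs were held by 23 activated CD8 T cells and by 0 naive CD8 T cells. Of the 5 marker genes Cd8a, Gzmk, Ccl5, Ifng and Nkg7, 4 or 5 were detected in 133 and 43 cells, 3 in 93, 2 in 23 and 1 in 2 cells.

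Transcripts of other cell types were counted in the class. Of the NK markers 7 of 7 were detected, at 1.28 UMIs a cell in activated CD8 T cells against 17.2 in NK cells, and the NK receptor gene Ncr1 had 1 UMI in the class. Of the myeloid markers 7 of 7 were detected, at 1.74 UMIs a cell in activated CD8 T cells, 0.954 in naive CD8 T cells and 9.16 in NK cells, which express the list member Fcer1g. A single cell held up to 68 myeloid UMIs, and 15 cells held over 3. The 4 fibroblast markers stood at 2.02 UMIs a cell in activated CD8 T cells, 2.20 in naive CD8 T cells, 2.16 in NK cells and 2.33 in cells named NKT. The B cell markers were at 0.0850 UMIs a cell. The erythroid markers, which are haemoglobin genes, were at 17.7 UMIs a cell in activated CD8 T cells, with up to 1916 in 1 cell, 10.2 in naive CD8 T cells, 14.6 in NK cells and 12.8 in cells named NKT. Counts, list medians and gene ratios were recomputed without the cells that held over 3 UMIs of other types' markers, haemoglobin and Fcer1g aside, and are given with the processing alternatives. The part of haemoglobin transcripts in the results was not tested.

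The marker genes separated the class from the other 3 in different ways. Cd8a (chr6:71373427-71379173, GRCm38), which encodes the CD8 alpha chain, stood at 508 CPM (471 to 547) in activated CD8 T cells, 243 (217 to 272) in naive CD8 T cells, 1.90 (0.230 to 6.87) in NK cells and 56.3 (44.7 to 70.0) in cells named NKT. Gzmk (chr13:113171608-113225908), for granzyme K, stood at 213 CPM (189 to 238) in activated CD8 T cells, against 0.775 (0.0196 to 4.32) in naive CD8 T cells, 26.6 (17.7 to 38.5) in NK cells and 1.39 (0.168 to 5.03) in cells named NKT. Gzmk was therefore the marker that was high in activated CD8 T cells and low in the 3 classes compared here, 8-fold (5.42 to 12.2) above NK cells.

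Ccl5, Nkg7 and Ifng were instead shared with NK cells. Ccl5 (chr11:83525778-83530518), a chemokine for T cells and monocytes, had 14781 CPM in activated CD8 T cells, 482 in naive CD8 T cells, 12953 in NK cells and 6536 in cells named NKT. Nkg7, a protein of cytotoxic granules, had 2304 CPM in activated CD8 T cells, 483 in naive CD8 T cells, 2137 in NK cells and 927 in cells named NKT. Ifng (chr10:118441046-118445892), for interferon gamma, had 307 CPM (279 to 338) in activated CD8 T cells, 18.6 (11.9 to 27.7) in naive CD8 T cells, 248 (219 to 280.1) in NK cells and 138 (119 to 158) in cells named NKT. The activated CD8 T cells were 16.5-fold (11 to 26.1) higher than naive CD8 T cells and 1.24-fold (1.06 to 1.45) higher than NK cells for Ifng.

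The shares of cells with a transcript were read at equal depth, after each cell was thinned to 1500 UMIs. Gzmk was then seen in 25.9% (20.9 to 31.3) of activated CD8 T cells, 0% of naive CD8 T cells, 3.20% of NK cells and 0.314% of cells named NKT. Without thinning the share was 43.5% of activated CD8 T cells, against 0.357% of naive CD8 T cells. In fibroblasts, which should lack Gzmk and had a median of 11494 UMIs, the thinned share was 0% (up to 0.453%), below the share in activated CD8 T cells. Ifng was seen in 24.5% (19.7 to 29.8) of thinned activated CD8 T cells and 45.2% without thinning, and in 0.123% of thinned fibroblasts. Ccl5 reached 96.6% of thinned activated CD8 T cells, 94.0% of NK cells, 16.1% of naive CD8 T cells and 4.18% of fibroblasts.

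**Figure D1:**
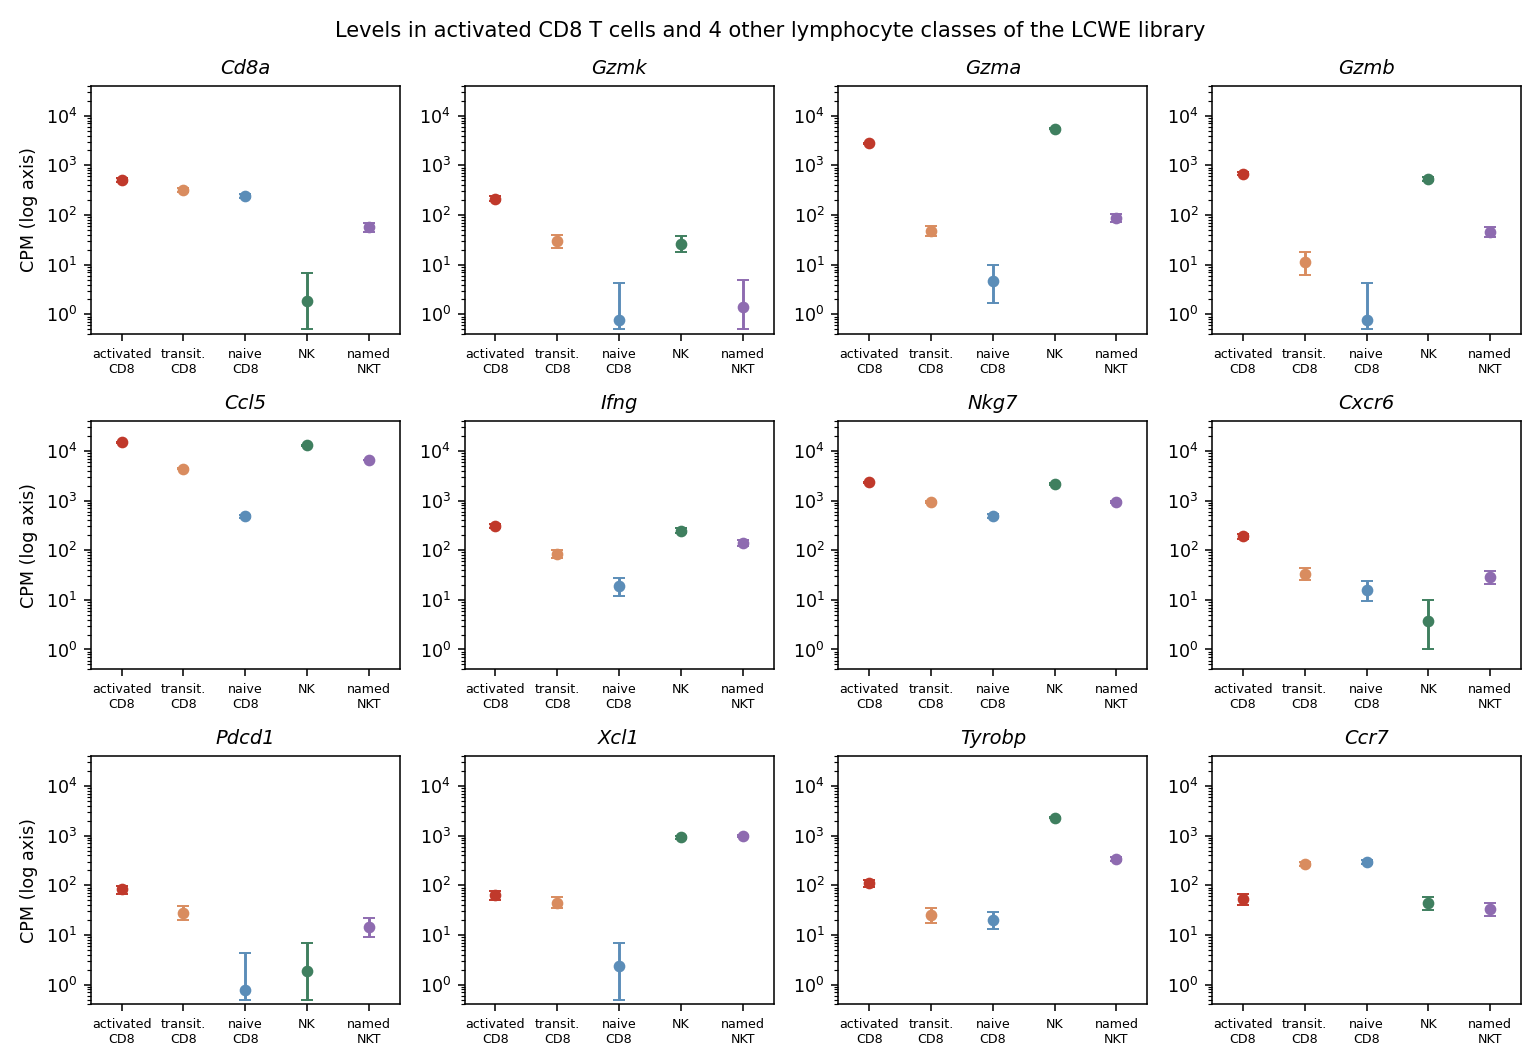
CPM on a log axis for 12 genes in activated CD8 T cells and 4 other lymphocyte classes of the LCWE library, with 95% Poisson intervals; points and interval ends under 0.5 CPM are drawn at 0.5. Gzmk, Cxcr6 and Pdcd1 are highest in activated CD8 T cells, Gzma and Tyrobp are highest in NK cells, and Xcl1 is high in NK cells and in cells named NKT.

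Gzma and Gzmb were the other granzymes with high levels in the class. Gzma (chr13:113093825-113100981), for granzyme A, stood at 2769.7 CPM (2683 to 2858) in activated CD8 T cells, 4.65 (1.71 to 10.1) in naive CD8 T cells, 5473 (5333 to 5617) in NK cells and 89.0 (74.3 to 106) in cells named NKT. Gzmb (chr14:56258838-56262260), for granzyme B, stood at 688 CPM (645 to 733) in activated CD8 T cells, 0.775 (0.0196 to 4.32) in naive CD8 T cells, 537 (494 to 583) in NK cells and 45.9 (35.5 to 58.4) in cells named NKT. The ratio of activated over naive CD8 T cells was 596 (273 to 1624) for Gzma and 888 (159 to 35107) for Gzmb, the second resting on 1 UMI in the naive cells. Against NK cells, Gzma was 1.98-fold (1.90 to 2.06) lower in activated CD8 T cells and Gzmb 1.28-fold (1.15 to 1.42) higher. Reads of near-identical copies (granzymes, Klra and Klrb1 genes, Klrc1 and Klrc2, Bcl2a1d, Ly6c2, Hspa1a and Hspa1b) could be split between family members in counting, so levels of single members are uncertain.

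The windows of 250 bases before the RefSeq start sites (GRCm38.p6, minus strand of each chromosome) are shown for the 3 granzymes because Gzma and Gzmb were often found in the same cells, while Gzmk was about as frequent with Gzma as without it. Capitals mark 2 core motifs, each searched on both strands. The core bound by RUNX factors was searched as TGTGGT and as its reverse complement, which reads ACCACA. The T-box core was searched as GGTGTGA and as its reverse complement. The windows are chr13:113100982-113101231 for Gzma, chr14:56262335-56262584 for Gzmb and chr13:113180966-113181215 for Gzmk. The Gzmk window lies inside the GENCODE span given above for the gene, so the 2 annotations place its start differently. Only the RefSeq window was searched.
Gzma: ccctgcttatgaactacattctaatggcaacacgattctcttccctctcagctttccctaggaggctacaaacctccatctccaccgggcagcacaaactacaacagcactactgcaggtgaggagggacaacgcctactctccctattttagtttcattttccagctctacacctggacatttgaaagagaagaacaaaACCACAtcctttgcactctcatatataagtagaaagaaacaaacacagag
Gzmb: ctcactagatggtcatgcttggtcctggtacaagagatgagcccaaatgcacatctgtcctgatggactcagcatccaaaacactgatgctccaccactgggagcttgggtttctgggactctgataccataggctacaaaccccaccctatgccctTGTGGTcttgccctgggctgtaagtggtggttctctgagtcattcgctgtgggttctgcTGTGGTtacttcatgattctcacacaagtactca
Gzmk: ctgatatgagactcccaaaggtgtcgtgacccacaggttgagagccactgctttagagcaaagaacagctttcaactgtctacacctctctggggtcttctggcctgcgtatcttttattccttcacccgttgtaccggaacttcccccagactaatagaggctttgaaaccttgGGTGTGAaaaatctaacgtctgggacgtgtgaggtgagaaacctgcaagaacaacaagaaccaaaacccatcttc
Gzma held 1 RUNX core at bases -50 to -45, counted back from the start site, and Gzmb held 2, at -93 to -88 and -34 to -29. Gzmk held 1 T-box core at -75 to -69 and no RUNX core in this window. A RUNX core was present in 4614 of 32851 promoter windows of the same length (14.0%), and the T-box core in 1095 (3.33%). A match describes the letters only and is no evidence of binding.

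The comparison with naive CD8 T cells covered 4922 genes with at least 50 UMIs in both classes together. At least 2-fold higher in activated CD8 T cells were 1024 genes (20.8%), and at least 2-fold lower were 107 (2.17%). The median of all these genes was 0.52 on the log2 scale. The 113 ribosomal protein genes took 27.2% of the UMIs in activated CD8 T cells and 45.5% in naive CD8 T cells, which moves with that shift. With median-of-ratios scaling, which sets the median to 0, the counts were 344 higher and 382 lower, so the higher genes were 47.4% of those called in place of 90.5%. List medians against naive CD8 T cells are therefore also given relative to 0.52. For the lists, members with at least 20 UMIs in both classes together were measured, and at that minimum 22.9% of 7488 genes were at least 2-fold higher and 3.02% lower.

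Cytotoxic, chemokine and receptor genes were higher as groups. Of 14 measured granule genes, 12 were at least 2-fold higher in activated than in naive CD8 T cells and 0 lower, with a median log2 ratio of 2.10, which is 1.58 above the median of all genes. Besides the granzymes, Serpinb9, a granzyme B inhibitor, stood at 148 CPM in activated CD8 T cells and 8.52 in naive CD8 T cells, a 17.4-fold (9.50 to 35.3) difference. Prf1, for the pore-former perforin, was low in both, at 17.9 CPM and 25 UMIs in activated CD8 T cells and 4.65 CPM in naive CD8 T cells. Fasl, the ligand of the death receptor FAS, stood at 88.6 CPM in activated CD8 T cells and 0.775 in naive CD8 T cells, with 1 UMI in the naive class and a ratio of 114 (20.1 to 4552).

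Of 8 measured effector cytokines and chemokines, 5 were higher and 0 lower, with a median of 3.28, or 2.76 above all genes. They were Ccl5, Ifng, Xcl1, Ccl4 and Ccl3. Of the activated CD8 T cells, only 24 had a Ccl3 UMI and 32 an Xcl1 UMI, and 4 cells held 50% of the UMIs of each. Ccl4, a chemokine for monocytes and T cells, stood at 424 CPM (390.2 to 459) in activated CD8 T cells and 38.7 (28.8 to 51.1) in naive CD8 T cells. Tnf had overlapping intervals, with 30 CPM (21.6 to 40.6) in activated CD8 T cells and 20.9 (13.8 to 30.4) in naive CD8 T cells.

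Of 20 memory and homing receptors, all measured, 15 were higher and 2 lower, with a median of 2.59, or 2.07 above all genes. Cxcr6, the receptor of CXCL16, stood at 191 CPM (169 to 216) in activated CD8 T cells and 15.5 (9.47 to 23.9) in naive CD8 T cells. Itgb1, the beta 1 integrin chain, stood at 497 CPM in activated CD8 T cells and 38.0 in naive CD8 T cells, and its partner Itga4 at 329 CPM in activated and 81.4 CPM in naive CD8 T cells. Cxcr3, the receptor for the interferon-induced CXC chemokines, was 13.2-fold (7.53 to 25.2) higher and Ccr2, which binds CCL2, 18.3-fold (8.16 to 50.8). These receptors of effector and memory T cells thus had several-fold higher levels in the class. The 2 lower members were Ccr9, a gut homing receptor, with 1.43 CPM in activated and 21.7 CPM in naive CD8 T cells, and Itgae, the alpha chain of CD103, with 10.0 CPM in activated and 34.9 CPM in naive CD8 T cells.

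Inhibitory and costimulatory receptors were also higher, 10 of 12 measured, with 0 lower and a median of 3.07, or 2.55 above all genes. Pdcd1, for the checkpoint receptor PD-1, stood at 82.2 CPM (67.8 to 98.6) in activated CD8 T cells and at 0.775 CPM, or 1 UMI, in naive CD8 T cells, a ratio of 106 (18.7 to 4224). Ctla4 stood at 126 CPM in activated CD8 T cells and 12.4 in naive CD8 T cells, and Icos, a costimulatory receptor, at 290.0 CPM in activated and 34.1 CPM in naive CD8 T cells. Lag3 and Havcr2, which are high in exhausted T cells, had low levels here, at 25.7 and 13.6 CPM in activated CD8 T cells. In naive CD8 T cells Lag3 stood at 3.10 CPM and Havcr2 had 0 UMIs. Lag3 was among the 10 higher members, and Havcr2 had too few UMIs to be measured in this comparison. Both were at least 2-fold higher than in NK cells and than in cells named NKT.

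NK-type receptors gave 11 of 11 measured members higher, with 9 of the 20 listed genes below 20 UMIs, so members low in naive CD8 T cells entered only through their level in activated CD8 T cells, and had to differ. The same holds for low members of the other lists. Some of the 11 rested on few activated CD8 T cells. For Tyrobp, Fcer1g and Klra3, 3 cells held 50% of the UMIs of each gene, and for Klra7 2 cells did. Klrc1 and Klrc2, of the CD94/NKG2 family, stood at 153 and 264 CPM in activated CD8 T cells and at 3.87 CPM each in naive CD8 T cells. Klrk1, for the activating receptor NKG2D, was 29.6-fold (14.8 to 69.3) higher. Klrg1, a marker of terminal effector T cells, had 75 UMIs (53.6 CPM) in activated CD8 T cells and 0 in naive CD8 T cells. With the naive sum raised to the floor of 3 UMIs the ratio was 23.1, which is not a lower limit. Bcl2a1d, an anti-apoptotic BCL-2 relative, was 35.3-fold (16.9 to 88.6) higher and Klre1, another lectin-like receptor, stood at 85 CPM in activated CD8 T cells and 1.55 in naive CD8 T cells with 2 UMIs.

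Of 24 measured lymphocyte transcription factors, 15 were higher and 1 lower, with a median of 1.24, or 0.72 above all genes. Tbx21, for T-bet, stood at 70.0 CPM in activated CD8 T cells and 8.52 in naive CD8 T cells, and Zeb2, which acts with T-bet in effector T cells, at 87.9 CPM in activated and 9.30 CPM in naive CD8 T cells. Bhlhe40, which supports effector cytokine production, was 11.4-fold (7.83 to 17.3) higher. Id3, kept by naive and memory precursor T cells, was the lower one, at 67.2 CPM in activated CD8 T cells and 248 in naive CD8 T cells.

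The naive genes were lower, 10 of 16 measured and 1 higher, with a median of -1.75, or -2.27 relative to all genes. Ccr7, a lymph node homing receptor, stood at 52.2 CPM in activated CD8 T cells and 296 in naive CD8 T cells. Tcf7, for the factor TCF1 of naive and stem-like T cells, stood at 165 CPM in activated CD8 T cells and 321 in naive CD8 T cells, under the 2-fold limit. Il7r, for the survival receptor of resting T cells, was 1.52-fold (1.26 to 1.85) lower. The 1 higher member was Ly6c2, a surface marker of antigen-experienced CD8 T cells, at 1154 CPM in activated and 294 CPM in naive CD8 T cells. Igfbp4 and Dapl1 were 7.86-fold and 7.79-fold lower. Genes outside the lists with the lowest ratios by the naming rule were Rapgef4, Fam101b, Atp1b1, Ggt1, Tdrp and Sox4, from 9.76-fold to 5.97-fold lower.

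Cytoskeletal and migration genes were higher in 15 of 17 measured members, with a median of 1.80, or 1.28 above all genes. S100a4, a calcium-binding protein of motile cells, stood at 663 CPM in activated CD8 T cells and 27.1 in naive CD8 T cells. Lgals1, for galectin-1, stood at 1670.3 CPM in activated CD8 T cells and 115 in naive CD8 T cells. In the list of T cell receptor signalling genes and their feedback regulators, 9 of 16 were higher and 1 lower, with a median of 1.10, or 0.58 above all genes. Rgs1, a brake on chemokine receptor signalling, was 10.2-fold (8.28 to 12.7) higher, and Pik3ip1, an inhibitor of PI3 kinase, was 5.30-fold (3.17 to 9.36) lower.

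The list of T cell receptor and coreceptor genes could be measured only without the receptor chains Trac, Trbc1 and Trbc2. Its genes of CD3 chains, coreceptors and related receptors were higher in 7 of 12 measured members, with a median of 1.04, or 0.52 above all genes. They included Cd3g, Cd28, Cd5 and Cd6, and also Cd4, at 15.7 CPM in activated CD8 T cells and 0.775 in naive CD8 T cells, where the 22 UMIs came from 10 cells. Cytokine receptors were higher in 10 of 17 and lower in 1, with a median of 1.13, or 0.61 above all genes. Among the higher was Il12rb2, a chain of the interleukin 12 receptor, at 32.9 CPM in activated CD8 T cells and 0.775 in naive CD8 T cells. Type I interferon response genes had 2 of 12 higher and 1 lower, and a median of 0.32, which is -0.20 relative to all genes. Interferon gamma response genes had 2 of 14 higher and 3 lower, and a median of 0.00, or -0.52 relative to all genes. Irf1, an interferon-induced factor, was 2.81-fold (2.38 to 3.33) lower. Thus the direction of the type I interferon list depends on the scaling.

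Immediate early and heat shock genes, which enzymatic digestion of tissue can induce, were lower in 6 of 16 measured members and higher in 1, with a median of -0.45, or -0.97 relative to all genes. Fos stood at 174 CPM in activated CD8 T cells and 688 in naive CD8 T cells, and Jun at 149 CPM in activated and 528 CPM in naive CD8 T cells. Nr4a1, which T cell receptor signals induce, was the higher one, at 278 CPM in activated CD8 T cells and 108 in naive CD8 T cells. Cell cycle genes were higher in 4 of 9 measured members, with a median of 0.85, or 0.33 above all genes. Mki67, a proliferation marker, had 18 UMIs in activated CD8 T cells and 2 in naive CD8 T cells, a ratio of 8.30 (1.99 to 73.7). Glycolysis genes were higher in 4 of 15, oxidative phosphorylation genes in 3 of 16 and class I presentation genes in 4 of 12, with 0 lower, beside the 22.9% of all genes. Their medians were 0.75, 0.84 and 0.93 in that order, or 0.23, 0.32 and 0.41 above all genes. Death ligands were higher in 2 of 4, with a median of 1.33, or 0.81 above all genes. The 5 measured class II presentation genes gave 0 in either direction, with a median of -0.12, or -0.64 relative to all genes. Without the cells that held other types' markers that median was 0.36.

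Against NK cells the differences were fewer. Of 5150 genes compared, 162 (3.15%) were at least 2-fold higher in activated CD8 T cells and 281 (5.46%) at least 2-fold lower, with a median of -0.01 on the log2 scale. At the 20-UMI minimum of the lists, 5.20% of 7609 genes were higher and 6.97% lower. The ribosomal share of UMIs was close, at 27.2% in activated CD8 T cells and 26.0% in NK cells.

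Genes of CD3 chains, coreceptors and related receptors led the higher side, with 9 of 12 measured members and a median of 4.11. Cd8b1, the CD8 beta chain, stood at 877 CPM in activated CD8 T cells and 3.80 in NK cells, a ratio of 231 (89.8 to 848) on 4 UMIs in NK cells. Cd3e stood at 531 CPM (493 to 570.4) in activated CD8 T cells and 12.4 (6.58 to 21.1) in NK cells. Cd6 and Cd5, scavenger-family receptors that tune T cell receptor signals, stood at 172 and 131 CPM in activated CD8 T cells and at 2.85 CPM each, or 3 UMIs, in NK cells. The adaptor gene Lat was 10.6-fold (7.98 to 14.5) higher, while Themis and Plcg1, both of the T cell receptor pathway, had 118 and 80 UMIs in activated CD8 T cells and 0 in NK cells. Bcl11b, the factor that sets T cell against NK identity, was 29.8-fold (16.0 to 62.6) higher.

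The receptors and checkpoint genes named by the rule on this side were Cxcr6 and Pdcd1. Cxcr6 stood at 191 CPM in activated CD8 T cells and 3.80 in NK cells, a ratio of 50.4 (19.4 to 186). Pdcd1 stood at 82.2 CPM in activated CD8 T cells and 1.90 CPM, or 2 UMIs, in NK cells, a ratio of 43.2 (11.7 to 361). Checkpoint and costimulatory receptors as a list had 7 of 14 higher and 1 lower with a median of 0.90, and Ctla4 and Icos were 13.3-fold (7.07 to 28.2) and 8.98-fold (6.32 to 13.1) higher. The lower member was Cd244, an NK receptor of the SLAM family, at 7.14 CPM in activated CD8 T cells and 84.6 in NK cells.

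NK receptor genes led the lower side, with 14 of 19 measured members lower, 0 higher and a median of -3.66. Ncr1, for NKp46, had 1 UMI in activated CD8 T cells, against 289 UMIs (275 CPM) in NK cells, a 384-fold lower level with a wide interval (68.5 to 15238). Klra8, the gene of the activating receptor Ly49H, stood at 2.86 CPM in activated CD8 T cells and 358 in NK cells. The adaptors that carry the signals of these receptors, Tyrobp (DAP12) and Fcer1g, stood at 110.0 and 101 CPM in activated CD8 T cells and at 2307 and 1946 CPM in NK cells. In the activated CD8 T cells 3 cells held 50% of the UMIs of Tyrobp, and likewise of Fcer1g. Klrb1c (NK1.1), Klrb1a, Klrb1b, Klra4, Klra9 and Klri2 were the other lectin-like genes named by the rule, with 9 UMIs or fewer each in activated CD8 T cells. Hhex, a homeobox factor, and Cma1, for mast cell chymase, were 46.0-fold (22.0 to 116) and 42.1-fold (14.0 to 208) lower.

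The killing apparatus itself was mixed. Of 15 measured granule genes 2 were higher in activated CD8 T cells than in NK cells, 4 lower and the median was 0.11. The higher ones were Gzmk and Gzmm, the second at 59.3 CPM in activated CD8 T cells and 6.65 in NK cells. The lower ones were Gzmc, Prf1, Serpinb9 and Serpinb6b. Prf1 stood at 17.9 CPM (11.6 to 26.4) in activated CD8 T cells and 58.9 (45.2 to 75.5) in NK cells, a 3.30-fold (2.04 to 5.48) lower level. Among chemokines, Xcl1, which attracts cross-presenting dendritic cells, stood at 62.9 CPM (50.4 to 77.5) in activated CD8 T cells and 925 (868 to 985) in NK cells, and Ccl3 at 53.6 CPM in activated CD8 T cells and 208 in NK cells. Of the 9 measured cytokines and chemokines, 1 was higher, 3 were lower and the median was 0.00.

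Transcription factors had 4 of 24 higher and 5 lower with a median of -0.53. Eomes, a T-box factor of NK cells, stood at 58.6 CPM in activated CD8 T cells and 353 in NK cells, and Irf8 at 30.7 CPM in activated CD8 T cells and 968 in NK cells. Tbx21 differed less, at 70.0 CPM (56.8 to 85.3) in activated CD8 T cells and 110.2 (91.1 to 132) in NK cells. Homing receptors had 2 of 18 higher and 2 lower with a median of -0.01. The higher ones were Cxcr6 and Cx3cr1, and the lower ones were Ccr2 and Cxcr4. Class II genes had 5 of 6 lower, among them Cd74 at 163 CPM in activated CD8 T cells and 441 in NK cells. The class II median was -1.55, and -0.65 without the cells that held other types' markers. The sum of the myeloid markers was also higher in NK cells, where it was mainly Fcer1g. In the other lists, naive genes had 5 of 16 higher and 2 lower, cytokine receptors 5 of 18 and 2, signalling genes 4 of 16 and 0, death ligands 1 of 4 and 0, type I interferon genes 1 of 12 and 1, class I genes 1 of 12 and 0, cell cycle genes 1 of 9 and 0, cytoskeletal genes 1 of 17 and 2, and immediate early genes 0 of 16 and 2. Interferon gamma response, glycolysis and oxidative phosphorylation genes gave 0 in either direction.

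Against the cells named NKT, 196 of 5425 genes (3.61%) were at least 2-fold higher in activated CD8 T cells and 134 (2.47%) at least 2-fold lower, with a median of 0.09. With median-of-ratios scaling the counts were 156 higher and 174 lower, so the higher genes were 47.3% of those called in place of 59.4%. At the 20-UMI minimum of the lists, 5.32% of 7880 genes were higher and 4.23% lower. The ribosomal share was 27.2% of UMIs in activated CD8 T cells and 33.1% in cells named NKT.

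Granzymes were low in the cells named NKT. Of 15 measured granule genes, 7 were higher in activated CD8 T cells and 1 lower, with a median of 0.92. Gzma was 31.1-fold (26.1 to 37.4), Gzmb 15-fold (11.7 to 19.5) and Gzmm 9.47-fold (4.76 to 21.4) higher, and Gzmk had a ratio of 153 (42.0 to 1269) on 2 UMIs in cells named NKT. Klrg1 had 75 UMIs in activated CD8 T cells and 0 in cells named NKT. The ratio was 25.7 with the second sum raised to the floor of 3 UMIs, which is again not a lower limit. The lower granule gene was Gzmc, with 3 UMIs (2.14 CPM) in activated CD8 T cells and 36.9 CPM in cells named NKT.

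Of 19 measured homing receptors, 6 were higher and 1 lower, with a median of 0.63. Cx3cr1, the fractalkine receptor, stood at 57.2 CPM (45.3 to 71.1) in activated CD8 T cells and 6.26 (2.86 to 11.9) in cells named NKT. Ccr2 stood at 85 CPM in activated CD8 T cells and 9.74 in cells named NKT. Of the cytoskeletal list, S100a4 stood at 663 CPM in activated CD8 T cells and 89.7 in cells named NKT. Checkpoint receptors had 8 of 14 higher and 1 lower with a median of 1.40. Ctla4, Icos and Pdcd1 were 6.06-fold (4.10 to 9.25), 5.96-fold (4.61 to 7.79) and 5.62-fold (3.51 to 9.43) higher.

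On the lower side were Ly49 receptors and Xcl1. Xcl1 stood at 62.9 CPM in activated CD8 T cells and 986 (935 to 1038) in cells named NKT, a 15.7-fold (12.6 to 19.7) difference. Klra1 and Klra7 stood at 5 and 20.7 CPM in activated CD8 T cells and at 213 and 334 CPM in cells named NKT. Klra6 had 2 UMIs and Klra9 0 in activated CD8 T cells, against 110 and 59 UMIs in cells named NKT. NK receptors as a list had 11 of 18 lower and 1 higher. Ikzf2, for the zinc finger factor Helios, which was named after its value was seen, stood at 87.9 CPM in activated CD8 T cells and 704 (661 to 749) in cells named NKT. Atp1b1, Hhex, Rbpms, Spry2 and Fndc3b, the remaining genes of the naming rule, were 22.7-fold to 10.9-fold lower.

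The remaining lists against cells named NKT gave the following counts. Genes of CD3 chains, coreceptors and related receptors had 6 of 12 higher and 0 lower with a median of 1.10. Cytokines and chemokines had 2 of 9 higher and 1 lower, and naive genes 1 of 16 and 4. Transcription factors had 4 of 24 and 4, and cytokine receptors 3 of 18 and 1. Type I interferon genes had 3 of 13 higher and 1 lower, interferon gamma response genes 4 of 13 and 0 with a median of 0.89, class I genes 2 of 12 and 0, cell cycle genes 2 of 9 and 0, glycolysis genes 2 of 16 and 0, cytoskeletal genes 6 of 17 and 0 with a median of 0.87, signalling genes 2 of 16 and 0, and immediate early genes 0 of 16 and 1. Death ligands, class II and oxidative phosphorylation genes gave 0 in either direction.

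**Figure D2:**
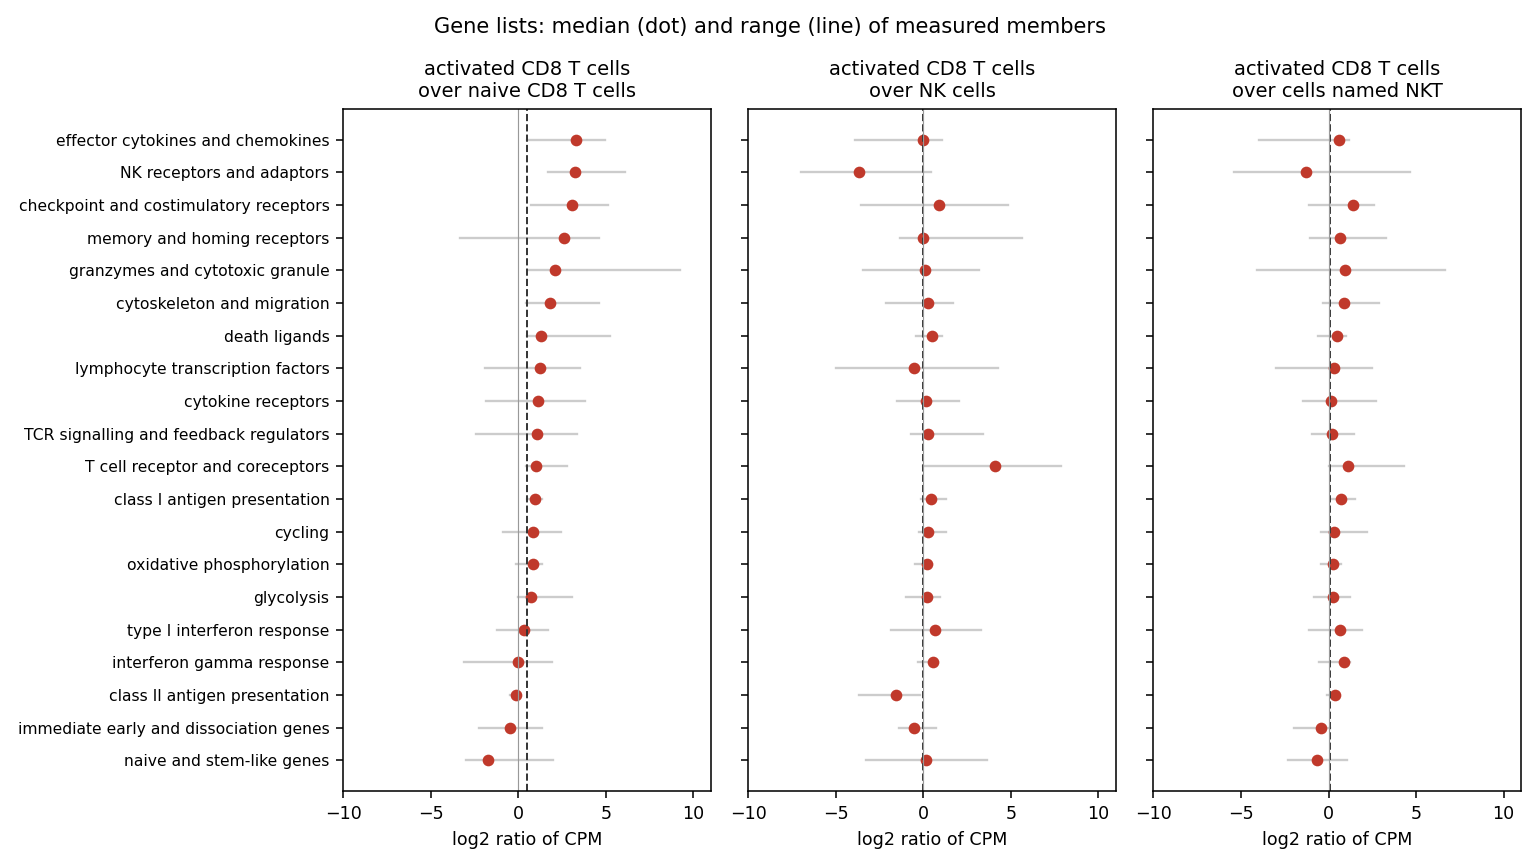
Median log2 ratio of CPM (dot) and range (line) of the measured members of 20 gene lists, for activated CD8 T cells over naive CD8 T cells, over NK cells and over cells named NKT. The dashed line is the median of all genes compared, 0.52, -0.01 and 0.09; NK receptors lie above it in the first panel and below it in the other 2, while naive genes lie below it in the first and last panels.

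The 294 cells, 5.77% of the cells and 3.31% of the UMIs of the LCWE library, held a large part of several effector transcripts. They held 48.8% (44.7 to 52.8) of the 611 Gzmk UMIs of the library, 37.4% (35.6 to 39.3) of the 2573 Gzmb UMIs and 33.2% of the 62263 Ccl5 UMIs. The 65 proliferating T cells held a further 27.5% (24.0 to 31.2) of the Gzmk UMIs and 18.7% (17.2 to 20.2) of the Gzmb UMIs. Gzmk stood at 213 CPM (189 to 238) in activated CD8 T cells and 172 (147 to 200.2) in proliferating T cells, with overlapping intervals. For Gzma, 29.9% (29.1 to 30.7) of 12958 UMIs lay in activated CD8 T cells and 44.4% in NK cells. For Ifng the class held 29.9% (27.5 to 32.3) of 1438 UMIs, against 18.2% in NK cells, 15.4% (13.5 to 17.3) in regulatory and activated CD4 T cells and 13.8% in cells named NKT. For Gzmk, Gzmb, Ccl5 and Ifng the class thus held a larger share than any other group in the plot of shares, and for Gzma NK cells did. By contrast they held 7.53% of Ccl4 UMIs, of which 76.4% lay outside T, NK and innate lymphoid cells, and 4.74% of Cx3cr1 UMIs, of which 90.2% lay outside. Xcl1 lay at 3.01% in activated CD8 T cells, 33.3% in NK cells and 48.5% in cells named NKT.

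**Figure D3:**
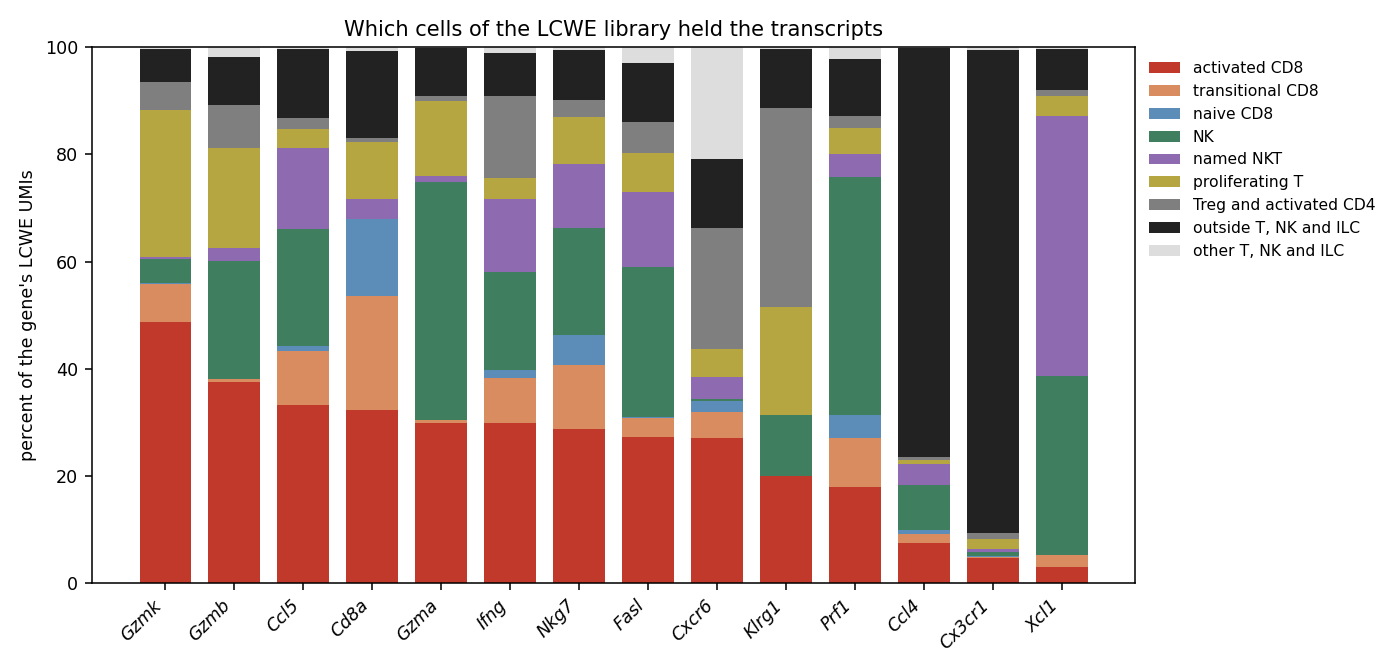
Percent of each gene's UMIs in the LCWE library (y axis, stacked to 100) that lay in activated CD8 T cells, 6 other lymphocyte groups, the remaining T, NK and innate lymphoid cells, and all cells outside the T, NK and innate lymphoid classes, for 14 effector genes. Activated CD8 T cells hold 48.8% of Gzmk and 3.01% of Xcl1.

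Within the class, granzymes were uneven from cell to cell. Without thinning, 65 of 294 cells had no UMI of Gzma, Gzmb or Gzmk, 47 had Gzmk alone, 25 Gzmb alone and 21 Gzma alone. Gzma with Gzmb was seen in 55 cells, Gzma with Gzmk in 20, Gzmb with Gzmk in 15 and all of them in 46. Gzma was concentrated: 83 cells with at least 10 UMIs held 95% of its 3877 UMIs, with up to 178 in 1 cell, while 152 cells had none and 31 had 1 or 2. Of those 83 cells, 75 had a Gzmb UMI and 31 a Gzmk UMI.

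At equal depth of 1500 UMIs, Gzma was seen in 123 cells and not in 171. This thinning was a separate random draw from the one used for the shares above. Here Gzmk was seen in 68 and Ifng in 85 of the 294 cells, so the shares differ somewhat. The intervals do not cover the draw. Gzmb was seen in 65.9% (56.8 to 74.2) of the cells with Gzma and 10.5% (6.36 to 16.1) of those without. Gzmk did not follow, with 22.0% (15 to 30.3) of the cells with Gzma and 24.0% (17.8 to 31.1) of those without. The cells with Gzma more often held Klrg1, in 16.3% (10.2 to 24.0) against 1.17% (0.142 to 4.16), Cx3cr1, in 17.1% against 3.51%, and Zeb2, in 24.4% against 6.43%. The cells with Gzma less often held Ltb, for lymphotoxin beta, in 26.0% (18.5 to 34.7) against 55.0% (47.2 to 62.6) of those without. The same held for Tcf7, in 9.76% (5.14 to 16.4) of cells with Gzma and 24.6% (18.3 to 31.7) of those without, and for Il7r, in 5.69% and 20.5%.

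For Ifng and Cxcr6 the intervals of the cells with and without Gzma overlapped. Ifng was seen in 31.7% (23.6 to 40.7) of the cells with Gzma and 26.9% (20.4 to 34.2) of those without, and Cxcr6 in 22.0% and 21.6%. The chemokine Ccl4 was more frequent with Gzma, in 39.8% (31.1 to 49.1) of the cells with it and 23.4% (17.3 to 30.5) of those without. It was also more frequent with Ifng, in 49.4% (38.4 to 60.5) of the 85 cells with Ifng and 22.5% (17.0 to 28.8) of the 209 without. Pdcd1 was seen in 4.88% (1.81 to 10.3) of the cells with Gzma and 11.1% (6.82 to 16.8) of those without, with overlapping intervals. These are cells of 1 library, so their agreement across animals was not tested.

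**Figure D4:**
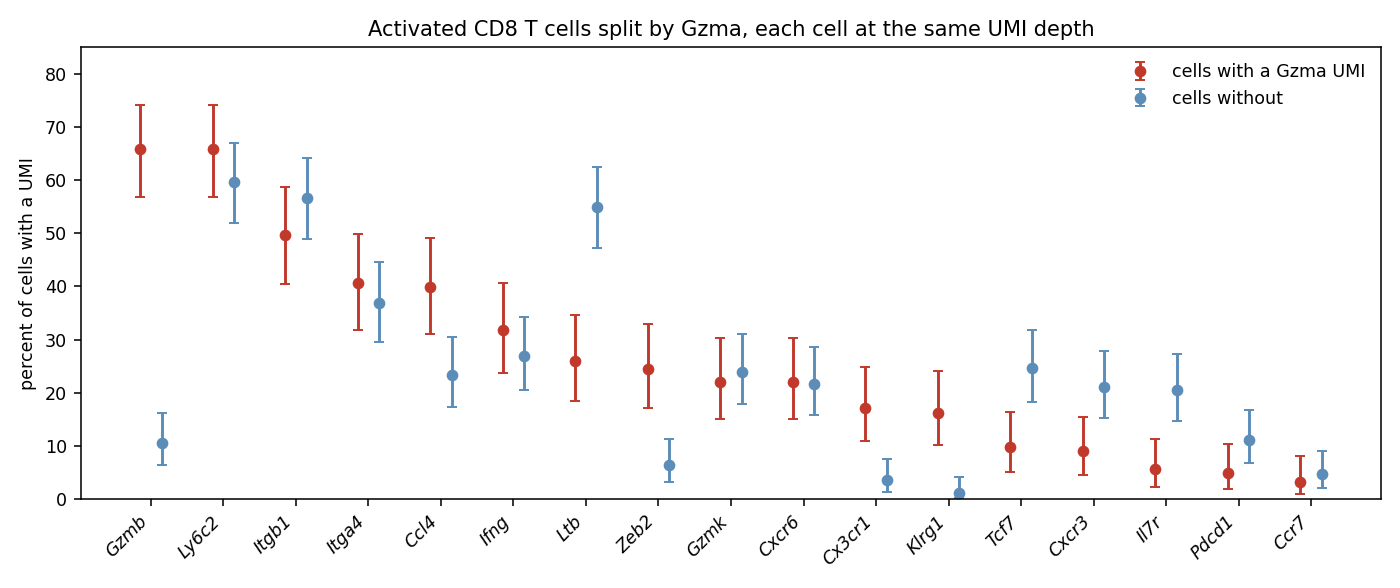
Percent of activated CD8 T cells with a UMI of each gene on the x axis, in 123 cells with a Gzma UMI and 171 cells without, each cell thinned to 1500 UMIs, with 95% Clopper-Pearson intervals. Gzmb, Klrg1, Cx3cr1 and Zeb2 are more frequent with Gzma, Ltb, Tcf7 and Il7r more frequent without it, and Gzmk, Ifng and Cxcr6 have overlapping intervals.

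Clustering of the 294 cells gave 2 groups, numbered by their Gzma level, described by their leading genes and not named. The leading genes were ranked in the same cells that formed the groups, so they are a description. The first had 88 cells (29.9%, median 3681.5 UMIs), led by Gzma at 8763 CPM, against 527 CPM in the second, and then by As3mt, Klrg1, Cx3cr1, Stard10, Klre1 and Gzmb. The second had 206 cells (70.1%, median 3912 UMIs), led by Ctla4, Dapl1, Vars, Pdcd1, Rassf2, Irs2 and Il7r. Ctla4 stood at 21.0 CPM in the first group and 166 CPM in the second, and Pdcd1 at 18.4 CPM in the first and 106 CPM in the second. Cd8a stood at 498 CPM in the first group and 511 CPM in the second, and Gzmk at 171 CPM in the first and 229 CPM in the second. Ccl5, Ccl4 and Ifng were higher in the first group, at 28783, 687 and 467 CPM, against 9541, 325 and 247 CPM in the second. A finer clustering used the same cells, genes and components, so it is no independent check. It kept the Gzma-led group, with 80 of its 81 cells from the first group, and divided the rest into 4. The smallest of these had 5 cells, of which 3 had a Cd8 UMI, and a median deposited doublet score of 0.226, against 0.0259 or less in the others.

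The 15 cells of the same name in the PBS library were too few to compare and are given as values. Gzma stood at 2769.7 CPM in the LCWE class and 7340.1 CPM in the PBS cells, and Gzmb at 688 CPM in the LCWE class and 959 CPM in the PBS cells. Gzmk stood at 213 CPM in the LCWE class and 192 CPM, on 14 UMIs, in the PBS cells, and Ifng at 307 CPM in the LCWE class and 411 CPM, on 30 UMIs, in the PBS cells. The 8 haemoglobin genes had 19.7 UMIs a cell in the LCWE class and 0.533 in the PBS cells.

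Over all genes compared, the profile of the class was most like that of the CD8 T cells named transitional between naive and activated. Pearson's r of log2(CPM + 10) was 0.953 with those 290 cells, 0.945 with cells named NKT, 0.928 with regulatory and activated CD4 T cells, 0.906 with NK cells and 0.895 with naive CD8 T cells. These are correlations across 4922 to 5537 genes of classes that share 1 library, given as a description.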

How the data were processed

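Single cells were profiled with 10x 3′ v3 chemistry, per the labels' protocols, after enzymatic digestion and dead cell removal. The submitters' processing notes name Cell Ranger 3.0.2 and mm10. The deposited matrices hold raw UMI counts of 27998 genes, and the authors' table of cells gives class names, total counts, the percent of mitochondrial UMIs and a doublet score from a caller that is not named. Cells the authors called dead or doublets are not in that table, and no caller was run here. The LCWE library had 42275754 UMIs and the PBS library 62600808.

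UMIs were summed per class. CPM have exact Poisson intervals, ratios exact conditional binomial intervals and shares Clopper-Pearson intervals, all at 95%. Sums under 3 UMIs were set to 3 for calling 2-fold differences. Subclusters used 1000 genes, 15 components, 15 neighbours and Leiden resolution 0.3 (scanpy 1.11.5, igraph 0.11.9). Python 3.11.15, scipy 1.17.1 and pandas 2.3.3 were used. The calls were tested on simulated class sums with counting error alone. Spread between cells was not simulated, so that test does not cover it. The named genes were, in each comparison, the 10 highest and 10 lowest ratios with at least 50 UMIs in the higher class, an interval beyond 1.5-fold, no cell with over 20% of the UMIs, and at least 5% of the level in the class with most. Further genes come from the lists and markers. The members and lists were chosen with earlier results of these data known. Gene coordinates are GENCODE vM21 (GRCm38), and promoter windows are RefSeq GRCm38.p6. Some genes are not reported here.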

Additional observations from a re-analysis of the deposited data

How the results depend on the processing

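The share of the class was 13.4% with T, NK and innate lymphoid cells as the denominator. The counts of genes at least 2-fold higher and lower depended on how many UMIs a gene needed. With a minimum of 20 UMIs they were 1713 and 226 against naive CD8 T cells, 396 and 530 against NK cells, and 419 and 333 against cells named NKT. With a minimum of 200 they were 309 and 38, 44 and 74, and 58 and 32 in the same order. With cells thinned to 1500 UMIs they were 464 and 57, 77 and 138, and 96 and 58. These settings change the number of genes compared. Median-of-ratios scaling gave 344 and 382 against naive CD8 T cells. Leaving out cells over 10% mitochondrial, keeping cells with Cd8 and without Cd4 UMIs, weighting cells equally and a floor of 1 UMI left each count within 1.5 times. Signs turned for Cd4, whose log2 ratio was -0.23 over NK cells and -0.51 over cells named NKT with Cd4-positive cells left out by construction, and for Klrb1b, at 0.11 over cells named NKT after thinning, where the class had 1 UMI without thinning. Of the list medians, 20 moved by over 0.25 (log2) under median-of-ratios scaling, 14 after thinning, 7 without cells holding other types' markers, 6 with cells weighted equally, 3 with Cd8 and without Cd4, 1 with a floor of 1 UMI and 0 without cells over 10% mitochondrial. Apart from the turned signs above, which are not counted here, 82 of 269 ratios of named genes left their interval after thinning. The number was 62 without cells holding other types' markers, 35 under median-of-ratios scaling and 26 with equal weights. It was 11 with Cd8 and without Cd4, and 0 under the others.

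Leaving out cells over 3 UMIs of other types' markers left 0 cells in every class, so that setting gave no value. With haemoglobin genes and Fcer1g set aside, a choice made after seeing the data, 178 activated CD8 T cells were left and the counts were 743 and 84, 132 and 195, and 159 and 93. Of the 7 list medians that moved, 3 changed sign: class II genes over naive CD8 T cells (0.36, against -0.12 with all cells), and, over NK cells, cytokines and chemokines (-0.29, against 0.00 with all cells) and cytokine receptors (-0.14, against 0.14). No paired analysis was possible because each condition is 1 pooled library, and for the same reason no replicate could be left out. Depth limits genes with few UMIs, whose ratios have wide intervals.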
